A study of Mus musculus with 2 samples.

Results

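The transcripts of 10 genes of the JNK and p38 branches of mitogen-activated protein kinase (MAPK) signalling were followed in the cells of mouse pancreatic tumours. They were chosen by gene symbol as 3 MAP kinases (Mapk8, Mapk9, Mapk14), 4 MAP2 kinases (Map2k3, Map2k4, Map2k6, Map2k7) and 3 MAPK phosphatases (Dusp1, Dusp4, Dusp6), and all 10 were found among the 32285 genes counted. The tumours came from KPPC mice, an engineered model of pancreatic ductal cancer driven by Cre recombinase in the pancreas; the labels name neither the alleles, the Cre promoter nor the number of mice behind a library. One group received vehicle and the other takinib at 50 mg/kg, in both cases for 14 days in mice aged 6 weeks, and both groups carried the KPPC genotype. Takinib inhibits TAK1, the MAP3 kinase encoded by Map3k7. Each group had 1 library of dissociated tumour cells, captured by droplet single-cell RNA sequencing, so that no difference here has a replicate check and no test between treatments was possible.

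MAP kinases act in cascades: a MAP3 kinase phosphorylates a MAP2 kinase, which phosphorylates the MAP kinase. Stress and cytokine signals pass from TAK1 and other MAP3 kinases to MKK4 and MKK7, which activate JNK, and to MKK3 and MKK6, which activate p38. Dual-specificity phosphatases remove these phosphates, and several are themselves transcribed in response to the kinases they turn off, so that their mRNA is often read as a trace of recent signalling. Kinase activity itself is not measured by a transcript count.

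The same filters left 9541 cells of vehicle and 25183 of takinib, with 41904734 and 119726977 unique molecular identifiers (UMIs, 1 per captured transcript) and a median of 3556 and 2887 UMIs per cell. Cells were sorted into classes by marker genes, and the 7 classes of 100 or more cells per library were compared. Vehicle and takinib cells numbered 272 and 12216 in the neutrophil-like class, 4722 and 7076 in macrophage-like, 1677 and 1947 in epithelial-like, 207 and 1249 in B-like, 222 and 1163 in T-like, 717 and 103 in endothelial-like, and 548 and 102 in fibroblast-like cells. The libraries stood apart in ways that touch the results below. Median mitochondrial share was 8.70% in vehicle and 1.79% in takinib cells and reached 14.1%, 14.6% and 13.7% in the vehicle neutrophil-like, B-like and T-like classes. The vehicle library held cells of both sexes, 1073 with Xist and no Y-linked UMIs and 3083 with the reverse, whereas 0 Y-linked UMIs were counted in takinib. A barcode was shared by a kept cell of each library in 359 cases, and the number that random overlap would give was not computed. Besides pancreatic cells, both matrices held epithelial-like clusters led by genes known from stomach (Gkn2, Gkn1; 24 vehicle and 227 takinib cells) and intestine (Spink4, Muc2; 102 and 79 cells), and a macrophage-like cluster led by genes known from lung macrophages (Chil3, Car4, Ear2; 758 and 1502 cells).

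The members did not move as a block. Dusp1, a nuclear phosphatase that acts mainly on p38 and JNK and is among the fastest stress-response genes, stood higher in takinib throughout the 7 classes, past 2-fold in 6 of them. Dusp6, a cytoplasmic phosphatase that acts on ERK and is itself a product of ERK signalling, stood lower in takinib in 6 classes and higher in T-like cells. The 7 kinases lay close to the typical gene: 1 of their 49 values passed 2-fold. Levels are given in CPM, the summed UMI count of a gene scaled to the total of its class and library. A log2 ratio compares takinib with vehicle after 10 CPM were added to both, a scale on which differences of low genes come out too small. Square brackets hold 95% intervals, which cover counting error only.

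**Figure D1:**
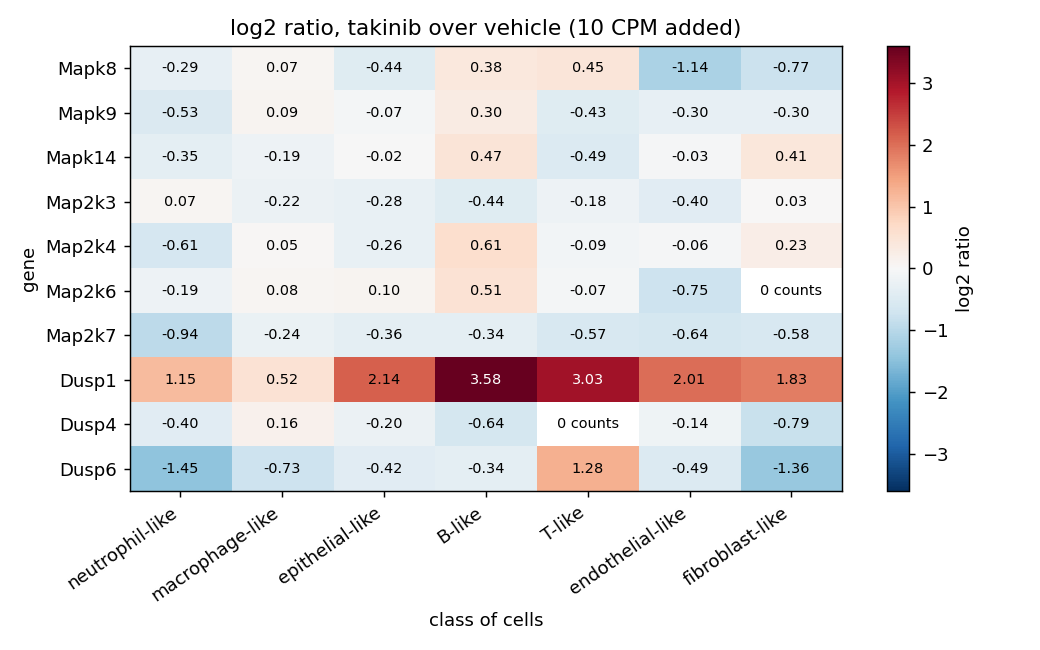
Log2 ratio of takinib over vehicle, with 10 CPM added to both, for the 10 genes (vertical axis) in 7 classes of cells (horizontal axis); red is higher in takinib, blue lower, and white marks a gene with 0 counts in one library. Dusp1 is above 0 in every class, from 0.52 in macrophage-like to 3.58 in B-like cells, while the 7 kinases lie between -1.14 and 0.61.

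Of the 70 values (10 genes in 7 classes), 10 passed 2-fold, 7 of them higher in takinib and 3 lower. The higher ones were Dusp1 in 6 classes and Dusp6 in T-like cells, and the lower ones were Dusp6 in neutrophil-like and fibroblast-like cells and Mapk8 in endothelial-like cells. Over every gene that reached 50 summed counts in the class in one library or the other, the share past 2-fold higher was 3.72% in neutrophil-like, 1.86% in macrophage-like, 2.37% in epithelial-like, 10.6% in B-like, 7.24% in T-like, 3.57% in endothelial-like and 2.09% in fibroblast-like cells. The share past 2-fold lower was 10.8%, 1.11%, 1.92%, 2.98%, 1.89%, 5.51% and 5.36% in the same order. Of the members that reached this count, 1 of 7 was higher in B-like cells and 1 of 9 was lower in neutrophil-like cells, where the background was 10.8%; neither share is read as a result about the members. The median member stood at -0.38 in neutrophil-like, 0.06 in macrophage-like, -0.23 in epithelial-like, 0.34 in B-like, -0.08 in T-like, -0.35 in endothelial-like and -0.18 in fibroblast-like cells. The median over all genes was -0.31, -0.01, -0.09, -0.02, -0.01, -0.17 and -0.12 in the same order.

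The promoters of Dusp1 and Dusp6 are printed because these phosphatases differed in opposite directions. Each sequence is the 250 bases before the RefSeq transcription start (GRCm38.p6), read 5′ to 3′ on the gene's strand. The Dusp1 window lies at chr17:26508473-26508722 on the minus strand and the Dusp6 window at chr10:99262981-99263230 on the plus strand. Capitals mark matches to the cAMP response element (CRE) TGACGTCA, its core TGACGT, the AP-1 site TGANTCA, the E-box CACGTG, the CArG box of serum response factor and the NF-kB site, searched on both strands.
Dusp1: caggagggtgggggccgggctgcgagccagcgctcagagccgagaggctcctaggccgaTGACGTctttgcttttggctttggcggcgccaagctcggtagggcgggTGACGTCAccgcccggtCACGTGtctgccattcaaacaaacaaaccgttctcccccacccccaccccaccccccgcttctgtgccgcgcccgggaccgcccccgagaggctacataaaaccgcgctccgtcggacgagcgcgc
Dusp6: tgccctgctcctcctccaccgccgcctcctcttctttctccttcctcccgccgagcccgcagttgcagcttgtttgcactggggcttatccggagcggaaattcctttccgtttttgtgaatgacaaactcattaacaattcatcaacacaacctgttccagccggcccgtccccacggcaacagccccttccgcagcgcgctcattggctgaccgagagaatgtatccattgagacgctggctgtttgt
The Dusp1 window held a CRE starting 143 bases before the start, a CRE core at 191, and an E-box at 126; the CRE core also matches both strands of the CRE itself, at 143 and 141. Of 32851 promoter windows of this length, 1.55% held a CRE, 6.47% a CRE core and 6.02% an E-box. The Dusp6 window held none of the 6 motifs. Windows were at hand for 9 of the 10 members, some with several starts (15 windows), and not for Dusp4. Among the kinases, Mapk8 had a CRE core 36 bases before its start, and Map2k6 (232 bases) and 1 of the Map2k7 windows (92 bases) an AP-1 site, a motif held by 6.75% of windows. A match is a description of letters, not a site shown to be bound. In the annotation used for positions (GENCODE M21, GRCm38), Dusp1 (ENSMUSG00000024190) spans chromosome 17 from 26505590 to 26562128 on the minus strand, a record that runs beyond the RefSeq start, and Dusp6 (ENSMUSG00000019960) spans chromosome 10 from 99263231 to 99267489 on the plus strand.

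Dusp1 was the most strongly differing member. In B-like cells it stood at 87.6 CPM in vehicle (35 counts) and 1156 CPM in takinib (3387 counts), a log2 ratio of 3.58 [3.15, 4.01]. In T-like cells it stood at 77.1 CPM (28 counts) and 702 CPM (1911 counts), a log2 ratio of 3.03 [2.55, 3.51]. These 2 ratios depended on the clusters taken: the T-like value was 1.71 at a Leiden resolution of 0.5, and the B-like value was 2.28 without a cluster almost wholly of takinib cells. Epithelial-like cells, the class into which carcinoma cells fall, went from 97.3 CPM (1094 counts) to 463 CPM (10056 counts), a log2 ratio of 2.14 [2.06, 2.22]. In the stroma the values were 146 and 622 CPM in the endothelial-like class (2.01 [1.81, 2.21]) and 94.7 and 362 CPM in fibroblast-like cells (1.83 [1.56, 2.09]). Stromal takinib values rest on 437 and 201 counts.

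The myeloid classes started higher and differed less. Neutrophil-like cells held 1048 CPM of Dusp1 in vehicle (396 counts) and 2332 CPM in takinib (74915 counts), a log2 ratio of 1.15 [1.01, 1.29]. Macrophage-like cells held 658 and 946 CPM, a log2 ratio of 0.52 [0.49, 0.54] that did not reach 2-fold. By log2 ratio, Dusp1 ranked above 94.0% of genes in macrophage-like cells and above 97.2% to 99.4% in the other 6 classes. This ranking took the genes that reached 50 summed counts in the class in one library or the other. Over all kept cells it went from 398 to 1183 CPM, 2.97-fold, in a comparison in which 2.62% of genes were past 2-fold higher and 3.42% past 2-fold lower; the share of neutrophil-like cells, at 2.85% of vehicle and 48.5% of takinib cells, differs between these sums.

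**Figure D2:**
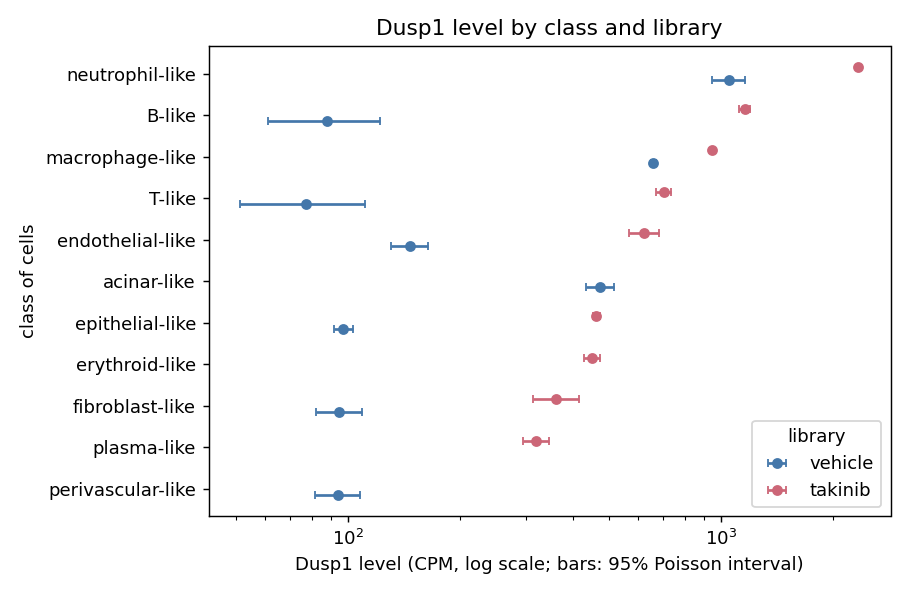
Dusp1 level in CPM (horizontal axis, log scale) for each class of cells with at least 50 cells in a library (vertical axis), vehicle in blue and takinib in red, with 95% Poisson bars. In each of the 7 classes with both libraries the takinib point lies to the right, and the vehicle points of epithelial-like, fibroblast-like, perivascular-like, B-like and T-like cells lie together between 77.1 and 97.3 CPM.

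By vehicle level, the order was neutrophil-like (1048 CPM), macrophage-like (658 CPM), acinar-like (473 CPM), endothelial-like (146 CPM) and then epithelial-like, fibroblast-like, perivascular-like (94.1 CPM), B-like and T-like cells, whose intervals overlap one another. Acinar cells make the digestive enzymes of the pancreas; their class had 299 vehicle cells and too few in takinib to compare. The takinib order was neutrophil-like (2332 CPM), B-like (1156 CPM), macrophage-like (946 CPM), T-like (702 CPM) and endothelial-like (622 CPM), then epithelial-like (463 CPM), erythroid-like (451 CPM), fibroblast-like (362 CPM) and plasma-like cells (320 CPM). Neighbours whose intervals overlap in takinib were T-like and endothelial-like, epithelial-like and erythroid-like, and fibroblast-like and plasma-like cells. The place of B-like cells in the takinib order rests on the cluster almost wholly of takinib cells; in the B-like cluster present in both libraries the takinib level was 261 CPM, below the other takinib classes in this order.

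Neutrophil transcripts moved with part of this order, and how they came to be in the sums of other classes was not tested. S100a8 and S100a9, the most abundant neutrophil transcripts, summed in takinib to 51047 CPM in B-like cells, 23791 in endothelial-like, 19439 in T-like, 10179 in epithelial-like, 7942 in fibroblast-like and 7849 in macrophage-like cells. In vehicle the same sum lay between 54.9 CPM in fibroblast-like and 764 CPM in B-like cells. Of the list of 9 neutrophil markers, none was at 0 in any takinib class, and the summed list ran from 8347 CPM in macrophage-like to 54458 CPM in B-like cells, against 89.5 to 871 CPM in vehicle classes other than neutrophil-like, where up to 3 markers were at 0. Since takinib neutrophil-like cells held 2332 CPM of Dusp1, their profile was subtracted from each class by the amount of S100a8 and S100a9 found there. This took away 38% of UMIs in B-like, 17.6% in endothelial-like, 14.4% in T-like, 7.59% in epithelial-like, 5.84% in fibroblast-like and 5.78% in macrophage-like takinib cells. The Dusp1 log2 ratio was then 2.36 in B-like, 2.52 in T-like, 1.59 in epithelial-like, 1.25 in fibroblast-like, 0.39 in macrophage-like and 0.80 in endothelial-like cells. The endothelial-like value no longer passed 2-fold after subtraction.

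Cells with no S100a8 or S100a9 UMI gave smaller Dusp1 differences, in an analysis added after the data were seen. Such cells made up 3.54% of takinib epithelial-like cells (69 cells), against 1460 vehicle cells. Their Dusp1 level was 183 CPM in takinib (160 counts) and 95.6 CPM in vehicle, a log2 ratio of 0.87 in place of 2.14. The clusters contributed unequally, with 5 takinib cells from the cluster led by Tnc, Tm4sf1 and Cdkn2a and 41 from that led by Mmp7 and Wfdc2. Among macrophage-like cells, 108 takinib cells had no such UMI, and Dusp1 stood at 739 CPM against 640 CPM in 3749 vehicle cells (0.20). Fewer than 50 takinib cells remained in the B-like, T-like, endothelial-like and fibroblast-like classes, so no value is given. In vehicle droplets under 100 UMIs, which hold free RNA, Dusp1 made up 298 CPM (194 of 651323 UMIs), above the vehicle level of epithelial-like cells; the takinib matrix held no barcode under 500 UMIs to set beside it.

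**Figure D3:**
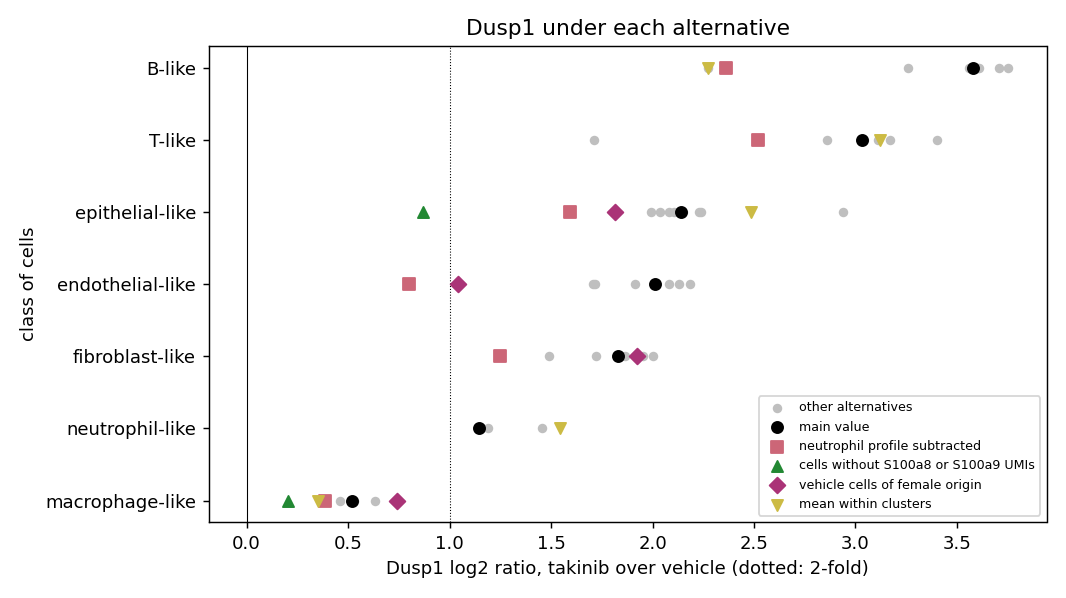
Dusp1 log2 ratio, takinib over vehicle (horizontal axis), in each class (vertical axis) as reported (black) and under each alternative treatment of the data; the dotted line is 2-fold. Every point lies above 0. The macrophage-like points lie lowest, down to 0.20, and 0.87 in epithelial-like cells without S100a8 or S100a9 UMIs and 0.80 in endothelial-like cells after subtraction of the neutrophil profile also fall short of 2-fold.

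Some values also differed when vehicle was limited to a small subset of its cells. Against vehicle cells with Xist and no Y-linked UMIs, the Dusp1 log2 ratio was 1.82 in epithelial-like (205 vehicle cells), 1.92 in fibroblast-like (116 cells), 0.74 in macrophage-like (515 cells) and 1.04 in endothelial-like cells (69 cells), where it had been 2.01. The neutrophil-like, B-like and T-like classes had 10, 19 and 19 such vehicle cells, too few for a value.

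Immediate-early and heat-shock genes that are known to be induced while tissue is digested were placed beside Dusp1, which belongs to the same kind of response. Of the 14 genes of this list, 11 were past 2-fold higher in epithelial-like cells (median log2 ratio 1.36 against -0.09 for all genes), led by Fos, an AP-1 subunit, at 110 and 587 CPM. In B-like cells 10 of 12 measured genes were higher (median 2.05), with the nuclear receptor gene Nr4a1 at 20.03 and 197 CPM, and in T-like cells 10 of 14 were higher and 2 lower (median 1.70). Endothelial-like cells had 7 of 13 higher and 1 lower (median 1.11) and fibroblast-like cells 8 of 13 higher (median 1.19). The myeloid classes differed: 1 of 14 was higher in neutrophil-like cells (Fosb; median -0.12), and in macrophage-like cells none was higher and 3 were lower (median -0.33), with the heat-shock gene Hspa1a at 53.8 and 12.2 CPM. The classes in which Dusp1 differed most were those in which this list was higher. The classes with the smallest Dusp1 ratios were those in which it was not. In takinib the list summed to 9121 CPM in neutrophil-like cells, against 5455 in B-like, 3641 in T-like and 3660 in epithelial-like cells. The part of neutrophil transcripts in the list values of other classes was not tested. The labels give the same enzymatic digestion for both libraries, and the part of dissociation, of neutrophil transcripts and of the drug in the Dusp1 difference was not tested.

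Within the 12 clusters that had 100 or more cells from both libraries, Dusp1 was higher in takinib in 11. Among epithelial-like clusters, the one led by Tff2 and Gkn3, mucous-cell genes, went from 15 CPM (32 counts) to 308 CPM (1490 counts), a log2 ratio of 3.67 [3.36, 3.98]. The cluster led by Mmp7, Wfdc2 and the hormone genes Ppy and Ghrl stood at 73.6 and 481 CPM (2.56 [2.40, 2.71]). Endocrine markers scored second there, at 0.461 against 0.723 for epithelial markers. The cluster led by Tnc, Tm4sf1 and Cdkn2a stood at 169 and 412 CPM (1.24 [1.11, 1.37]). The 3 epithelial-like clusters thus differed more from one another in vehicle than in takinib. Within the B-like cluster present in both libraries (204 and 673 cells), Dusp1 stood at 45.9 and 261 CPM (2.28 [1.71, 2.84]). The other B-like cluster was almost wholly of takinib (3 and 576 cells), held 1802 CPM of Dusp1 and 83801 CPM of S100a8 and S100a9, and without it the B-like ratio is 2.28 in place of 3.58.

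Macrophage-like clusters differed in both size and direction. The cluster led by the MHC class II genes H2-Ab1 and H2-Eb1, which held most vehicle macrophage-like cells (3169 and 379), stood at 675 and 622 CPM, a log2 ratio of -0.12 [-0.19, -0.04]. Clusters led by Chil3, by Ccl8 and by the proliferation genes Pclaf and Top2a gave 0.22, 0.19 and 0.31. The monocyte-like cluster led by S100a4, Vcan and Ccr2 went from 420 to 958 CPM (1.17 [0.94, 1.40]), and its sum of S100a8 and S100a9 from 2707 to 11944 CPM. A cluster led by U90926, Saa3 and F13a1, with 2 vehicle and 1999 takinib cells, held 1327 CPM. The mean over the clusters of the class present in both libraries was 0.35, against 0.52 for the class as a whole. The neutrophil-like cluster that held 255 of the 272 vehicle cells, led by Retnlg, Cxcr2 and the insulin gene Ins2, stood at 1102 and 3231 CPM (1.54 [1.39, 1.69]). Endocrine markers scored second in this cluster, at 0.418 against 0.554 for neutrophil markers. Other takinib neutrophil-like clusters ran from 298 CPM in the one led by the precursor genes Elane and Mpo to 2967 CPM in the one led by the interferon-response genes Gbp2, Cxcl10 and Rsad2.

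**Figure D4:**
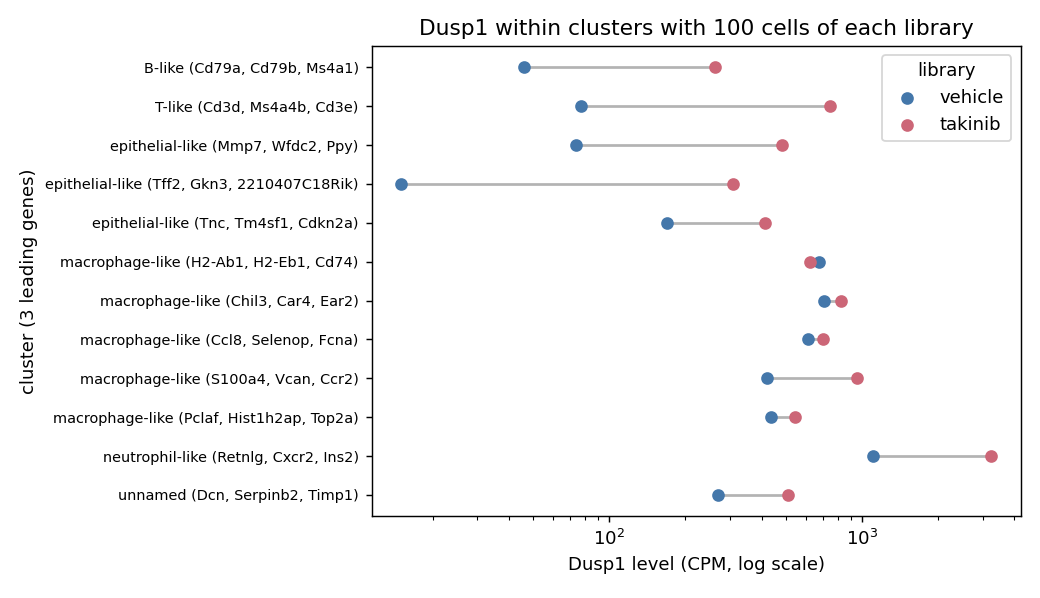
Dusp1 level in CPM (horizontal axis, log scale) in vehicle (blue) and takinib (red) for the 12 clusters that had 100 or more cells from both libraries, named by class and 3 leading genes (vertical axis). The lines are long in B-like, T-like and epithelial-like clusters, up to 15 against 308 CPM, and short in macrophage-like clusters except the one led by S100a4.

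Dusp6 went the other way in most classes. Neutrophil-like cells held 87.3 CPM in vehicle (33 counts) and 25.6 CPM in takinib (822 counts), a log2 ratio of -1.45 [-1.90, -1.0]. Fibroblast-like cells held 38.8 CPM (82 counts) and 9.0 CPM (5 counts), a log2 ratio of -1.36 [-2.01, -0.71]. Macrophage-like cells held 63.4 and 34.2 CPM, a log2 ratio of -0.73 [-0.82, -0.65] below 2-fold, though 2.29% of genes of the class stood lower. Smaller differences of the same sign were seen in endothelial-like cells (94.1 and 64.0 CPM, -0.49 [-0.90, -0.08]) and epithelial-like cells (79.7 and 57.2 CPM, -0.42 [-0.53, -0.31]). The B-like value of -0.34 [-0.97, 0.29] spans 0. In vehicle droplets under 100 UMIs Dusp6 made up 62.9 CPM (41 counts), above the vehicle fibroblast-like level and close to the macrophage-like level. The part of free RNA in these values was not tested.

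T-like cells were the exception, from a very low base. Their 222 vehicle cells held 1 Dusp6 UMI (2.75 CPM) and the 1163 takinib cells 57 (20.9 CPM), a ratio of 7.61 with an exact interval of [1.31, 306] and a log2 ratio of 1.28 after 10 CPM were added. The takinib level was close to that of takinib neutrophil-like cells (25.6 CPM) and of B-like cells (25.6 CPM). In T-like cells the value depended on the clustering, at 0.15 with a Leiden resolution of 0.5, where the fibroblast-like value was -0.20. The neutrophil-like value was past 2-fold in each of the 7 alternatives that gave one, from -1.73 to -1.01.

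**Figure D5:**
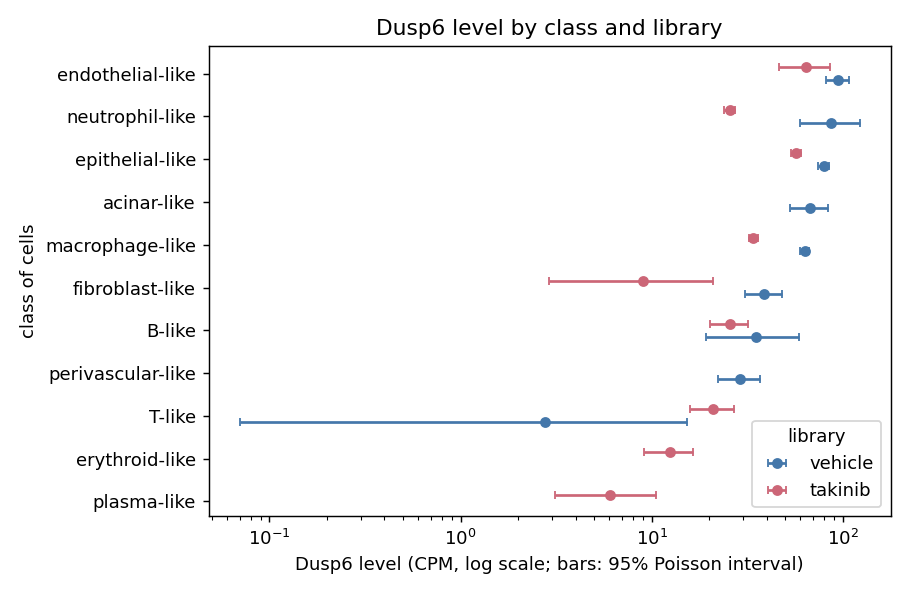
Dusp6 level in CPM (horizontal axis, log scale) by class of cells (vertical axis), vehicle in blue and takinib in red, with 95% Poisson bars. Takinib points lie to the left in 6 of the 7 classes with both libraries, with bars that do not meet in neutrophil-like, epithelial-like, macrophage-like and fibroblast-like cells, and the T-like vehicle bar is wide because it rests on 1 count.

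Within clusters, Dusp6 was below 0 in 10 of 12, with an interval below 0 in 7. The neutrophil-like cluster led by Retnlg stood at 97.4 and 43.3 CPM (-1.01 [-1.49, -0.53]), the macrophage-like cluster led by Ccl8 at 95.6 and 52.4 CPM (-0.76 [-1.02, -0.50]), and that led by S100a4 at 66.8 and 39.0 CPM (-0.65 [-1.17, -0.12]). The MHC class II-led cluster gave -0.22 and the Chil3-led cluster 0.04. In epithelial-like cells the highest level was in the cluster led by Tnc, Tm4sf1 and Cdkn2a, at 115 and 97.5 CPM (-0.22), and the Tff2-led cluster held 48.8 and 44.6 CPM (-0.11). Against female vehicle cells the epithelial-like ratio became 0.06, the endothelial-like ratio 0.36 and the macrophage-like ratio -0.32, so the sign in the first 2 of these classes is not firm.

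Dusp4, a nuclear phosphatase of ERK, JNK and p38, was largely an epithelial transcript here. Epithelial-like cells held 32.8 CPM in vehicle (369 counts) and 27.3 CPM in takinib (593 counts), a log2 ratio of -0.20 [-0.34, -0.06]. The cluster led by Tnc, Tm4sf1 and Cdkn2a held the most, at 54.4 and 50.5 CPM (-0.09). The Mmp7-led cluster held 24.6 and 26.6 CPM (0.08) and the Tff2-led cluster 15.9 and 22.7 CPM (0.33). The mean over these clusters was 0.11, so the sign of the epithelial-like value is not firm. In macrophage-like cells the levels were 0.589 and 1.79 CPM (12 and 85 counts), so a log2 ratio of 0.16 on the scale with 10 CPM added. Fibroblast-like cells held 22 counts in vehicle and 1 in takinib, a ratio of 0.173 [0.00419, 1.07], and T-like cells 0 and 7 counts, which gives no ratio. Perivascular-like vehicle cells, the mural cells of vessels, held 13.4 CPM and acinar-like vehicle cells 13.1 CPM, levels not read as above background, since vehicle droplets under 100 UMIs held 10.7 CPM (7 counts).

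Mapk8 encodes JNK1 and Mapk9 encodes JNK2. Mapk8 gave the only kinase value of a whole class past 2-fold, in endothelial-like cells. It stood there at 62.1 CPM in vehicle (134 counts) and 22.8 CPM in takinib (16 counts), a log2 ratio of -1.14 [-1.67, -0.60]. It was past 2-fold in 8 of 12 alternatives and at -0.28 against female vehicle cells. With each class scaled so that its median gene stands at 0, a shift of 0.31 in neutrophil-like, 0.17 in endothelial-like and 0.12 in fibroblast-like cells, it was -0.97, while Dusp6 stayed past 2-fold lower in neutrophil-like (-1.14) and fibroblast-like cells (-1.24). Fibroblast-like cells gave -0.77 [-1.42, -0.11] (60 and 7 counts), and epithelial-like cells -0.44 [-0.58, -0.30] (38.1 and 25.4 CPM). The epithelial-like difference lay mainly in the Mmp7-led cluster, at 53.3 and 25.8 CPM (-0.82 [-1.02, -0.62]), against -0.13 and -0.21 in the Tff2-led and Cdkn2a-containing clusters. In macrophage-like cells Mapk8 was nearly level, at 13.1 and 14.2 CPM (0.07). Mapk9 ranged from -0.53 in neutrophil-like to 0.30 in B-like cells, and its interval spanned 0 in each of the 7 classes. Its highest levels were in vehicle fibroblast-like cells (48.8 CPM) and takinib erythroid-like cells (48.2 CPM), and its lowest in takinib neutrophil-like cells (9.81 CPM).

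Mapk14 encodes p38 alpha, the main p38 of most tissues. Its vehicle levels were highest in T-like (68.8 CPM), acinar-like (68.1 CPM) and macrophage-like cells (64.2 CPM), with overlapping intervals. Vehicle droplets under 100 UMIs held 52.2 CPM (34 counts). That lies inside the T-like interval of 44.5 to 101.6 CPM and below the acinar-like and macrophage-like intervals. Log2 ratios ran from -0.49 in T-like to 0.47 in B-like cells, and only the macrophage-like interval excluded 0, at -0.19 [-0.27, -0.11] (64.2 and 54.9 CPM). Against female vehicle cells that value was 0.03.

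Among the MAP2 kinases, Map2k3 and Map2k6 encode the p38 activators MKK3 and MKK6. Map2k3 was present at 29.8 to 76.5 CPM in the vehicle classes compared, with the highest level in endothelial-like cells. The lowest, in fibroblast-like cells, is not read as above background, since vehicle droplets under 100 UMIs held 29.2 CPM (19 counts). Its intervals excluded 0 in macrophage-like (-0.22 [-0.32, -0.13]; 47.2 and 39.0 CPM) and epithelial-like cells (-0.28 [-0.40, -0.15]; 53.8 and 42.6 CPM). It was level in neutrophil-like cells, at 66.1 and 70.2 CPM. The B-like value was -0.44 [-0.98, 0.11], past 2-fold lower in 3 of 10 alternatives and above 0 in 1. In the B-like cluster present in both libraries Map2k3 stood at 58.7 and 23.6 CPM (23 and 29 counts, -1.03 [-1.65, -0.41]). Map2k6 was the rarest member, at most 9.27 CPM in any class, and its endothelial-like value rests on 20 and 1 counts, a ratio of 0.154 [0.00371, 0.960]. Fibroblast-like cells held 1 and 0 counts of it, which gives no ratio.

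Map2k4 and Map2k7 encode the JNK activators MKK4 and MKK7. Map2k4 was highest in neutrophil-like cells, at 89.9 CPM in vehicle (34 counts) and 55.5 CPM in takinib (1783 counts), a log2 ratio of -0.61 [-1.05, -0.17]. Within the Retnlg-led cluster alone the Map2k4 ratio was 0.08. Epithelial-like cells gave -0.26 [-0.39, -0.14] (49.4 and 39.5 CPM), and the other 5 intervals spanned 0.

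Map2k7 was the kinase with the same sign throughout, lower in takinib in 7 of 7 classes and with an interval below 0 in 5. It went from 34.4 to 13.1 CPM in neutrophil-like cells (-0.94 [-1.55, -0.33]; 13 and 422 counts), from 71.6 to 44.8 CPM in T-like cells (-0.57 [-1.10, -0.04]) and from 58.8 to 34.2 CPM in endothelial-like cells (-0.64 [-1.14, -0.15]). The 2 deepest classes gave smaller values, -0.36 [-0.49, -0.23] in epithelial-like (43.7 and 31.9 CPM) and -0.24 [-0.34, -0.14] in macrophage-like cells (35.9 and 28.8 CPM). Within clusters it was below 0 in 11 of 12, with an interval below 0 in 7, for example 53.0 and 31.8 CPM in the Mmp7-led epithelial-like cluster (-0.59 [-0.79, -0.39]). No class value of Map2k7 passed 2-fold with 10 CPM added, though the plain neutrophil-like ratio of vehicle over takinib was 2.62. With 1 CPM added instead, the neutrophil-like value was -1.32. With each cell thinned to 1000 UMIs, the fibroblast-like value was -1.05. In cells without S100a8 or S100a9 UMIs the ratio was 0.01 in the epithelial-like class and 0.02 in the macrophage-like class. In B-like cells it was 0.21 without the cluster almost wholly of takinib. Map2k7 made up 36.8 CPM (24 counts) in vehicle droplets under 100 UMIs, above the vehicle neutrophil-like and macrophage-like levels. The part of free RNA in its differences was not tested.

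The rest of the pathway was placed beside the members by lists of gene names. Of the 9 genes of the ERK cascade, 1 was past 2-fold, Map2k1 (MEK1) in neutrophil-like cells, at 29.1 and 111 CPM. Of 15 MAP3 kinases, Map3k8 (TPL2), which feeds both ERK and JNK signalling downstream of NF-kB, was the gene past 2-fold higher in epithelial-like (4.0 and 21.2 CPM), B-like (5.01 and 94.9 CPM) and T-like cells (8.26 and 55.1 CPM). Past 2-fold lower were Map3k4 in neutrophil-like cells (21.2 and 4.45 CPM) and Taok2 in T-like cells (55.1 and 22.0 CPM). Map3k7, the transcript of the drug's target, stood at 37.2 and 25.3 CPM in epithelial-like and 22.2 and 24.99 CPM in macrophage-like cells. Among the p38 effector kinases, Mapkapk2 (MK2) was higher in B-like (57.6 and 199 CPM) and T-like cells (55.1 and 142 CPM). In B-like cells 2 of 5 measured genes of this list were past 2-fold higher, Mapkapk2 and Mapkapk3, beside a background of 10.6%. In T-like cells it was 1 of 4, beside 7.24%. None of the measured JNK scaffold genes (2 to 4 in each class, 5 in epithelial-like cells) was past 2-fold. Of the 4 other JNK and p38 kinases, 3 were measured in epithelial-like cells, 1 in each of the neutrophil-like, macrophage-like, B-like and endothelial-like classes and 0 in T-like and fibroblast-like cells, and none of those measured was past 2-fold. Neutrophil transcripts moved with the B-like, T-like and epithelial-like values. S100a8 and S100a9 summed in takinib to 51047 CPM in B-like, 19439 CPM in T-like and 10179 CPM in epithelial-like cells. Takinib neutrophil-like cells held 156 CPM of Map3k8 and 375 CPM of Mapkapk2. The part of neutrophil transcripts in these differences was not tested.

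Other MAPK phosphatases also differed, with Dusp16 in front. Dusp16, which acts on JNK and p38, was higher in takinib neutrophil-like (74.1 and 252 CPM, 1.64), macrophage-like (18.7 and 53.3 CPM, 1.14), B-like (27.5 and 134 CPM, 1.94) and T-like cells (5.51 and 70.2 CPM, 2.37). The epithelial-like class held 28.5 and 53.4 CPM, short of 2-fold on this scale. Unlike Dusp1, Dusp16 was thus past 2-fold in macrophage-like cells and not in epithelial-like cells. In B-like cells all 3 measured phosphatases of the list passed 2-fold (Dusp2, Dusp5 and Dusp16), beside a background of 10.6% and a takinib sum of which 38% of UMIs were taken away by subtraction of the neutrophil profile. Takinib neutrophil-like cells held 53.5 CPM of Dusp2 and 73.6 CPM of Dusp5 beside the 252 CPM of Dusp16, and the part of their transcripts in the B-like and T-like values was not tested. In endothelial-like cells Dusp2 was lower (115 and 34.2 CPM, -1.51).

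Genes known as outputs of ERK signalling gave a mixed picture beside Dusp6. Ier3, an immediate-early gene that also responds to NF-kB, was past 2-fold higher in macrophage-like (245 and 804 CPM), B-like (85.1 and 1281 CPM), T-like (46.8 and 675 CPM), endothelial-like (92.7 and 723 CPM) and fibroblast-like cells (98.97 and 358 CPM). Past 2-fold lower were the ERK pathway inhibitors Spred1 in neutrophil-like cells (34.4 and 11.1 CPM) and Spry1 in endothelial-like cells (106 and 31.3 CPM), and the transcription factor gene Etv4 in fibroblast-like cells (26.5 and 3.6 CPM). Ccnd1, which encodes cyclin D1, was also past 2-fold lower in neutrophil-like cells (23.8 and 6.35 CPM), where 10.8% of all genes were, and Phlda1 was past 2-fold higher in B-like cells (20.03 and 59.4 CPM). Takinib neutrophil-like cells held 2697 CPM of Ier3, more than any of the takinib classes in which it was past 2-fold higher, and the part of their transcripts in those values was not tested. Of the 10 genes of this list, 0 were past 2-fold in epithelial-like cells, and the median there was -0.18 against -0.09 for all genes.

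Across the 18 sums of a class and library, the genes whose log2 CPM followed Dusp1 most closely among 7195 genes were Ptafr (r = 0.975), Cd33 (r = 0.973) and C5ar1 (r = 0.971), surface receptors of myeloid cells. Dusp6 was followed by Rreb1 (r = 0.894), Fcho2 (0.863) and Baiap2 (0.856), Map2k4 by genes that include Sos2 (0.926) and Cggbp1 (0.874), and Map2k7 by Fubp1 (0.898), Atxn7 (0.893) and Phc3 (0.891). For Mapk8 they were Gdpd5 (0.885), Stx1a (0.879) and Fam171a2 (0.869), for Mapk14 Bak1 (0.861), Arpc4 (0.852) and Kif3b (0.826), and for Map2k3 Dcaf12 (0.863), Slc30a9 (0.836) and Usp4 (0.805). Mapk9, Map2k6 and Dusp4 stayed below the 50 CPM that this ranking required in at least 1 sum. Between members, Dusp1 and Map2k7 ran in opposite directions (r = -0.66), while Map2k3 and Map2k4 ran together (r = 0.66). These are Pearson correlations given as a description; the points share 2 libraries, their depth and, in takinib, the neutrophil transcripts.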

How the data were processed

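The deposited matrices hold raw UMI counts per gene and barcode, made by the authors with Cell Ranger 4 for vehicle and 6.1.1 for takinib, per the file headers. The submitters' processing notes name Cell Ranger 2.1.1, STAR 2.0.4b, featureCounts 1.45, Subread, bcl2fastq and mm10 without a role, so the versions conflict. The vehicle matrix listed 704261 barcodes, including empty droplets; the takinib matrix listed 34158, none under 500 UMIs. Filters required 1000 UMIs and 500 genes per barcode and allowed 20% mitochondrial UMIs (9872 and 26790 barcodes passed). Doublets were scored per library with scanpy's Scrublet at an expected 6%. The automatic threshold removed 331 barcodes (3.35%) in vehicle; in takinib it marked 0.0187%, and the 1607 top-scoring barcodes (6%) were left out instead.

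Cells of both libraries were clustered together in scanpy 1.11.5 (2000 variable genes without the members and list genes, 30 components, 15 neighbours, Leiden resolution 1), with no correction between libraries. Clusters were named from marker lists. The naming rule was set after the data were seen: at least 3 detected markers, no competing class with at least 3 detected markers scoring 0.75 of the best, and no lead of another class's markers among the 10 leading genes. Clusters left unnamed held 203 vehicle and 615 takinib cells. Macrophage-like and neutrophil-like cells of the libraries fell largely in different clusters, named beside their values.

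Counts were summed per class and library and scaled to CPM. Intervals at 95% are exact Poisson for levels, exact conditional binomial for ratios of few counts, and from Poisson variances for log2 ratios, a step checked on simulated data. Depth limits the smallest classes: 363165 UMIs in vehicle T-like cells put 1 count at 2.75 CPM. With 1 library in each of 2 groups there was no test. The members, the lists and the comparisons were chosen with earlier results of these data known. Named list genes are the highest and lowest of each list past 2-fold in a class, among genes with at least 50 summed counts, and genes that a count names or that encode the drug's target. Alternatives changed the pseudocount, cell filters, doublets, scaling, depth, names, clustering, neutrophil transcripts and sex of vehicle cells. For each member that reached 50 CPM, the 3 genes of highest correlation are named, except 1 that is not reported here.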

Additional observations from a re-analysis of the deposited data

Results flagged for a closer look

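Dusp6 went in opposite directions under the same contrast. Its log2 ratio of takinib over vehicle was -1.45 in neutrophil-like cells and -1.36 in fibroblast-like cells but 1.28 in T-like cells. In each of these classes the 95% counting interval excluded 0. The difference between the classes was not tested, since each group had 1 library. The T-like value rests on 1 vehicle count and the fibroblast-like value on 5 takinib counts. At a Leiden resolution of 0.5 the T-like value was 0.15 and the fibroblast-like value -0.20.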

How the results depend on the processing

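As reported, 7 member values were past 2-fold higher and 3 past 2-fold lower, of 70. With a pseudocount of 1 CPM, 9 were lower. Cells with at least 2000 UMIs and 1000 genes left 4 classes, with 3 higher, as in those classes before. At most 10% mitochondrial UMIs gave 3 higher and 1 lower in 4 classes, where 3 and 2 had been counted, and vehicle cells of female origin gave 3 higher and 1 lower, again against 3 and 2. Cells without S100a8 or S100a9 UMIs, an alternative chosen after seeing the data, gave 0 higher and 0 lower in 2 classes, where 1 and 0 had been counted. The other alternatives gave 5 to 7 higher, or 9 with a pseudocount of 1 CPM, and 2 to 4 lower. The cause of these shifts was not tested, except that fewer classes had enough cells. Dusp1 kept its sign in each class and alternative that gave a value. Classes without enough cells gave no value, and the neutrophil-like class gave none with doublets kept or with all variable genes, where its vehicle cells fell in an unnamed cluster. No paired analysis was possible because each group has 1 library. Depth limits Map2k6 and Dusp4 outside epithelial-like cells, and single counts decide the Dusp6 value in T-like cells.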

Other observations

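In the unnamed cluster led by Dcn, Serpinb2 and Timp1, with 137 vehicle and 257 takinib cells, Dusp1 stood at 269 and 507 CPM, a log2 ratio of 0.89 [0.69, 1.10]. Dusp4 stood there at 6.69 and 14.8 CPM, on 5 and 48 counts (0.57 [0.01, 1.14]), and Dusp6 at 46.8 and 38.6 CPM (-0.22). An unnamed cluster of 33 vehicle and 139 takinib cells led by Cd79a, in which macrophage markers scored highest, held 858 CPM of Dusp1 in takinib. Another of 122 takinib cells led by Vcam1, Cd5l and Slc40a1, genes of iron-recycling macrophages, held 659 CPM.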
